A study of Rattus norvegicus with 4 samples.

Results

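DNA damage signalling and repair genes were examined in NR8383 cells exposed to iron oxide. The group holds 38 genes listed by name: base excision and single-strand break repair (11 genes), nucleotide excision repair (9), mismatch repair (2), damage sensing and checkpoint kinases (6), non-homologous end joining (5), homologous recombination and the Fanconi anaemia pathway (3) and translesion synthesis (2). A gene was measured where the RefSeq accession of a probe matched its symbol. This held for 32 of the 38 members, among 16581 genes named in the same way, while Ercc4, Ercc5, Msh6, Atr, Prkdc and Rev1 had no probe named in this way and were not analysed here. NR8383 is an established macrophage line grown out of a lung lavage of a normal rat, taken here after 20 passages. Cultures were seeded 48 h ahead, and the exposure was to Fe2O3 (NRCWE018) at 2 µg/mL and lasted 4 h. The 4 cultures, called replicates 1 to 4, form 1 group with 1 single-colour array each. The study also had cultures without the particle, which were not analysed here, so no value below is a response to the particle.

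Each level is the log2 of the background-subtracted spot signal minus the log2 of the 75th percentile of its own array, so 0 marks that percentile. The 75th percentile signal was 1072, 984, 1082 and 756 intensity units on replicates 1 to 4, and no spot was saturated. Probes bind with different strength, so a level is compared between arrays for 1 probe and never between probes. Each culture had its own array, so an effect of the culture and one of its array or the place of that array cannot be told apart. Macrophage markers were well above background on all 4 arrays for 10 of 10 genes measured, against 0 of 7 markers of lung epithelium and 0 of 4 of T, NK and B cells. Of the endothelial and fibroblast markers this held for 1 of 5, Cdh5, at -4.38, -4.22, -4.53 and -3.78.

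Cells meet DNA damage with several systems. Oxidised or deaminated bases are cut out by glycosylases, and the gap is opened, filled and sealed in base excision repair, which is the main route for damage by reactive oxygen. Bulky lesions leave with a short stretch of strand in nucleotide excision repair, while replication errors are removed by mismatch repair. Double-strand breaks are sensed by the MRN complex and the kinase ATM, then joined end to end or copied from the sister strand by homologous recombination. Macrophages make reactive oxygen themselves when they take up particles, and iron can add to it through the Fenton reaction.

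Repair genes were mostly measurable in the exposed cells. Of the 32 members with a named probe, 29 were well above background on all 4 arrays, called detected here, against 50.5% of all 16581 named genes. Xrcc4 was above background on 3 arrays, and Rad50 and Lig4 on none, a state shared by 43.0% of all named genes. By pathway, the count was 11 of 11 in base excision and single-strand break repair, 7 of 7 in nucleotide excision repair, 1 of 1 in mismatch repair and 1 of 1 in translesion synthesis. The double-strand break genes, taken as sensing, end joining and homologous recombination together, reached 9 of 12: 4 of 5 in sensing, 2 of 4 in end joining and 3 of 3 in homologous recombination and the Fanconi anaemia pathway. In RNA from whole cultures, fewer expressing cells and less RNA per cell cannot be told apart. A weaker mark of detection, a signal positive and significant against background, took the count to 32 of 32 members and 59.0% of all genes. With every probe of a gene required above background it was 26, without Atm, Brca1 and Brca2. That rule can drop only genes with several probes. It dropped 3 of 10 such members, against 23.6% of all 3658 such genes.

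**Figure D1:**
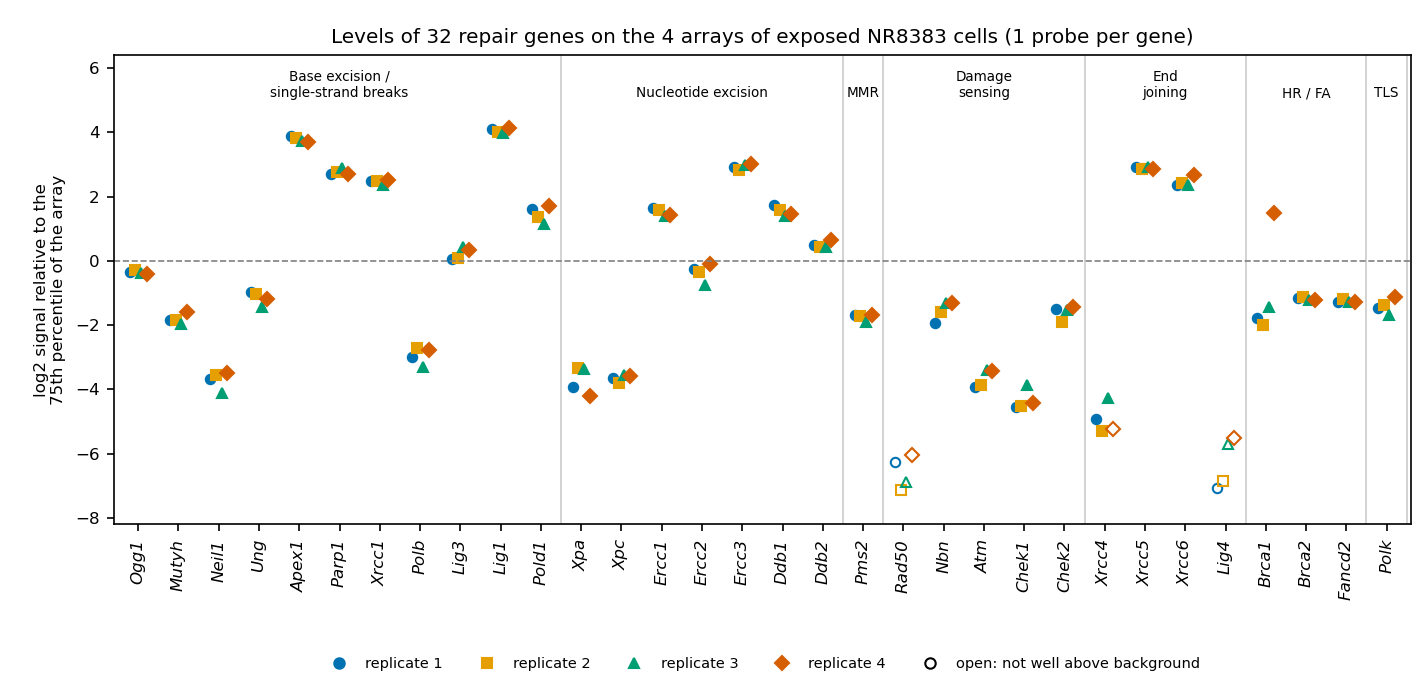
Levels of the 32 measured repair genes (log2 signal relative to the 75th percentile of the array, dashed line at 0) in the 4 exposed cultures, 1 symbol per replicate and 1 probe per gene. MMR is mismatch repair, HR / FA homologous recombination and the Fanconi anaemia pathway, and TLS translesion synthesis; open symbols were not well above background. The 4 values of most genes lie close together, Brca1 stands at 1.49 on replicate 4 alone, and Rad50 and Lig4 have open symbols on every array.

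The choice of genes did not use promoter letters, whose shares are given beside those of all promoters and of detected genes, with no test. RefSeq gives the sequence from 250 bases before to 50 after the start for 32 of the 38 members on build GRCr8. These are not the same 32 as the measured members. Polb, Xpa, Ddb2, Nbn, Chek2 and Prkdc are missing, and Ercc4, Ercc5, Msh6, Atr and Rev1, which were not measured, are included. The GC box GGGCGG, bound by SP1-type factors, was found on either strand in 21 of 32 (65.6%), against 34.9% of all 27457 promoters and 62.2% of those of genes above background on all arrays. The TATA box TATAAA was found in 0 of 32, against 14.3% of all promoters and 7.17% of those of detected genes. CCGGAAGT, the ETS site, was in 6 members (18.8%), namely Ercc1, Ercc3, Ercc5, Rad50, Xrcc4 and Fancd2, against 4.01% of all promoters and 9.71% of those of detected genes. CCAAT was in 13 (40.6%), against 37.7% of all promoters and 39.2% of those of detected genes. The E2F site TTTCGCGC was in 2 members, Lig1 and Polk (6.25%), against 0.342% of all promoters and 0.714% of those of detected genes. Its variant TTTGGCGC was in 0, against 0.521% and 0.999%, and the consensus NRF1 site in 0, against 0.932% and 2.03%. Among 85 other repair genes with a promoter sequence, the ETS site was in 10 (11.8%), the GC box in 51 (60.0%) and CCAAT in 38 (44.7%). TATAAA was in 2 of them (2.35%), TTTCGCGC in 4 (4.71%), TTTGGCGC in 1 (1.18%) and the NRF1 site in 3 (3.53%). Median GC content was 59.8% for members, 52.3% for all promoters and 60.3% for detected genes. A match describes letters in the window and not a bound site.

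Many repair genes start back to back with another gene, a feature looked for after the promoter sequences were seen. Of the 32 members with a promoter sequence, 14 (43.8%) had a gene on the opposite strand that starts within 1000 bases upstream. The share was 10.3% of all promoters and 17.9% of those of detected genes. Among the other repair genes it was 27 of 85 (31.8%), and no difference between these shares was tested. The partner had a named probe in 10 of the 14 pairs, and all 10 partners were above background on all 4 arrays, against 50.5% of all named genes. The member of each of these 10 pairs was detected too, and no share was taken over the partners of other detected genes. The stretch between both starts is shown for a member of each excision or mismatch pathway and of the Fanconi anaemia pathway, 5′ to 3′ on the strand of the repair gene. Capitals mark matches to the 7 motifs above on either strand, which do not overlap here. They are Apex1 with Osgep (chr15:26618114-26618225, + strand, GRCr8), Mutyh with Toe1 (chr5:135510627-135510753, +), Xpc with Lsm3 (chr4:125578085-125578184, -), Pms2 with Aimp2 (chr12:15814721-15814941, -) and Fancd2 with Emc3 (chr4:148234596-148234707, +).
Apex1: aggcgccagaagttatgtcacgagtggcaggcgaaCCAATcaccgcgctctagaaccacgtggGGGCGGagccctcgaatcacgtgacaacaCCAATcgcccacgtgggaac
Mutyh: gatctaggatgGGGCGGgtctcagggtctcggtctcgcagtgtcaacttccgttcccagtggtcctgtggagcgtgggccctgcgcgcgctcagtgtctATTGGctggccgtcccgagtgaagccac
Xpc: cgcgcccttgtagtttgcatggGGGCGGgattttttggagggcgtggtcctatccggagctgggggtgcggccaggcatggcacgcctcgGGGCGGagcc
Pms2: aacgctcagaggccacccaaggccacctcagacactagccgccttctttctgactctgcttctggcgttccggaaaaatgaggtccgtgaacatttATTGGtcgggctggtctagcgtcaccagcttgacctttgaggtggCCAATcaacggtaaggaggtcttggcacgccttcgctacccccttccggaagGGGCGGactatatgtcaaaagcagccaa
Fancd2: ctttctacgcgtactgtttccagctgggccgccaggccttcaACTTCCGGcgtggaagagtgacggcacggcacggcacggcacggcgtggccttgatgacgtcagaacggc
In the stretches shown, Apex1 and Pms2 carry a GC box and 2 CCAAT boxes each, Mutyh 1 of each kind and Xpc 2 GC boxes. Fancd2 carries a single ETS site there, read on the other strand. The shares above cover the whole window, in which Fancd2 has a GC box as well. The gene across from Apex1, Osgep, stood at 1.22, 1.17, 1.14 and 1.17 on replicates 1 to 4. Lsm3, across from Xpc, stood at 3.49, 3.45, 3.60 and 3.49, and Npat, across from Atm at a distance of 556 bases, at -4.91, -4.74, -4.22 and -4.67.

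Both members that were well above background on no array carry GC boxes too. The 250 bases before the start are shown for Rad50 (chr10:38362101-38362350, - strand, GRCr8), with 2, and for Lig4 (chr16:86220192-86220441, + strand), with 3, all read on the other strand. The ETS site counted above for Rad50 does not lie within the stretch shown.
Rad50: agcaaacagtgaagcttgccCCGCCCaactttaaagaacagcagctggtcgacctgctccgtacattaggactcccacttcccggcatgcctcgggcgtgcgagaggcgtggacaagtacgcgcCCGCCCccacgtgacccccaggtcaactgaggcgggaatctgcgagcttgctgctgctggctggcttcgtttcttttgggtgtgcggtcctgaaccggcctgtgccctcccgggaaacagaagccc
Lig4: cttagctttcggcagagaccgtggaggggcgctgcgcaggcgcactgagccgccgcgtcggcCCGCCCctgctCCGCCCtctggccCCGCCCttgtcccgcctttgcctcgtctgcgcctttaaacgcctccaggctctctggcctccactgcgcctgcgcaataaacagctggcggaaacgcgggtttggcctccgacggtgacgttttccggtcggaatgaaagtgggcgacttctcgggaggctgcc

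Base excision repair begins with glycosylases, and the 4 members of this kind were measured on every array. Ogg1, which removes oxidised guanine, stood at -0.34, -0.29, -0.37 and -0.41 on replicates 1 to 4 (-0.35 ± 0.05, SD, n = 4). The values lie within a 1.09-fold range. Mutyh, which removes adenine set opposite oxidised guanine, stood at -1.85, -1.85, -1.95 and -1.60 on 1 probe and at -2.31, -2.16, -2.21 and -2.18 on the other. The first probe was highest and the second next to highest on replicate 4. Ung, which removes uracil, stood at -0.96, -1.04, -1.44 and -1.18, and Neil1, which removes oxidised pyrimidines, at -3.67, -3.55, -4.12 and -3.50. Both were lowest on replicate 3.

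The steps after base removal run from cutting to sealing. Apex1, the endonuclease that cuts at the empty site, stood at 3.89, 3.81, 3.72 and 3.70 (3.78 ± 0.09, n = 4). Parp1, the poly(ADP-ribose) polymerase that senses strand breaks, has 10 spots per array and stood at 2.69, 2.75, 2.89 and 2.70, with a median SD of 0.05 between spots of 1 array. The software marked 2, 2, 2 and 3 of its spots as outliers on replicates 1 to 4, and these were left out. Xrcc1, the scaffold of single-strand break repair, stood at 2.47, 2.47, 2.35 and 2.51. These genes differed between cultures by a factor of 1.15 at most.

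Gap filling and sealing fall to polymerases and ligases. Polb, the short-patch polymerase, stood at -2.99, -2.72, -3.31 and -2.78. Pold1, the catalytic subunit of polymerase delta, stood at 1.61, 1.36, 1.16 and 1.70, a 1.46-fold range. Its 2 spots per array differed by a median SD of 0.016, so spot noise was small beside the SD of 0.25 between arrays, yet the spread did not pass the test below (limma adjusted p = 0.987). Lig1, the replicative ligase, stood at 4.09, 4.02, 3.97 and 4.14 on its main probe with 10 spots, and at 2.87, 2.91, 2.75 and 2.91 on a second probe. Lig3, the ligase that works with Xrcc1, stood at 0.07, 0.10, 0.42 and 0.35 on 1 probe and at -2.61, -2.71, -2.64 and -2.48 on the other. The first Lig3 probe was higher on replicates 3 and 4 than on 1 and 2, an order that the second did not share.

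Nucleotide excision repair was measured from damage recognition to incision. Xpc, the lesion sensor, stood at -3.63, -3.81, -3.54 and -3.59, and Ddb2, which finds ultraviolet damage, at 0.49, 0.43, 0.43 and 0.65. Its partner Ddb1, also an adaptor of a ubiquitin ligase, stood at 1.73, 1.59, 1.40 and 1.45. Ddb1 was lower on replicates 3 and 4 than on 1 and 2. The helicases of TFIIH, which open the strand, are Ercc3 and Ercc2. Ercc3 stood at 2.93, 2.83, 2.97 and 3.00, and Ercc2 at -0.26, -0.34, -0.75 and -0.10. Ercc2 was lowest on replicate 3. Xpa, the scaffold that checks the lesion, stood at -3.92, -3.34, -3.37 and -4.21, the widest of the 7 genes with a 1.82-fold range, and its signals were only 1.73 to 4.87 times the lowest signal above background on the same array. Ercc1, part of the nuclease that cuts on the 5′ side, stood at 1.66, 1.58, 1.38 and 1.42. Like Ddb1, it was lower on replicates 3 and 4.

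Mismatch repair rests on Pms2, a subunit of the MutL endonuclease, at -1.68, -1.72, -1.90 and -1.70. Polk, a polymerase that copies past bulky lesions, stood at -1.47, -1.36, -1.68 and -1.11. Both genes were lowest on replicate 3.

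Among the genes that sense breaks, Nbn, the MRN subunit that recruits ATM, stood at -1.95, -1.60, -1.32 and -1.31. Rad50, the coiled-coil subunit of the same complex, gave signals of 13.9, 7.01, 9.11 and 11.5, under the lowest signals well above background of 22.8, 20.7, 21.5 and 23.7 on the same arrays. These signals were positive and significant against background, so they give a bound and no absence. Atm, the break-activated kinase, stood at -3.92, -3.88, -3.40 and -3.43 on 1 probe, and its second probe was not well above background on any array. Chek1, the checkpoint kinase downstream of ATR, stood at -4.56, -4.51, -3.86 and -4.41, with signals 1.5 to 3.46 times the lowest above background. Chek2, the checkpoint kinase downstream of ATM, stood at -1.51, -1.89, -1.53 and -1.42. Nbn, Atm and Chek1 were higher on replicates 3 and 4 than on 1 and 2, and none of the 3 passed the test of spread below.

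End joining has a core that binds broken ends and a ligase that seals them. Xrcc5, the larger Ku subunit, stood at 2.93, 2.86, 2.93 and 2.87, and its second probe at 2.96, 2.86, 2.86 and 2.76. The 1.05-fold range of the first probe was the smallest among the 29 detected members. Xrcc6, the other Ku subunit, stood at 2.37, 2.41, 2.36 and 2.69 on its main probe and at -0.92, -0.99, -1.03 and -2.10 on the second. Replicate 4 stood apart on both probes, as the highest on the first and the lowest on the second. Xrcc4, the partner of the ligase, gave signals of 35.5, 25.0, 55.8 and 20.3 and was well above background on replicates 1 to 3. Lig4, the ligase itself, gave signals of 7.95, 8.54, 20.6 and 16.5, and neither of its probes was well above background on any array.

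In homologous recombination, Brca2, a core factor of this pathway, stood at -1.16, -1.13, -1.22 and -1.23 (-1.18 ± 0.05, n = 4). Fancd2, the Fanconi anaemia protein that marks crosslinks, stood at -1.28, -1.18, -1.29 and -1.27 (-1.26 ± 0.05, n = 4). Both held within a 1.08-fold range. Brca1, which directs end resection, stood at -1.77, -1.99, -1.44 and 1.49 (-0.93 ± 1.63, n = 4), so replicate 4 exceeded each other culture while those 3 lay close together. The second Brca1 probe and the second Brca2 probe were not well above background on any array.

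**Figure D2:**
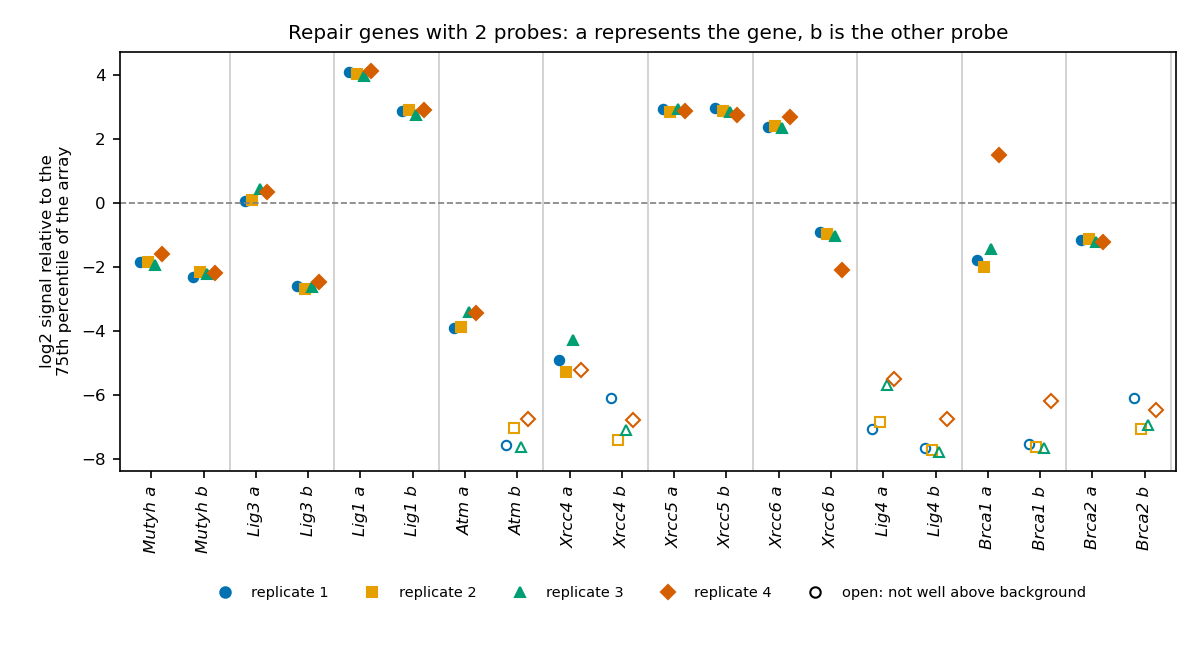
Levels of the 10 repair genes with 2 probes (log2 signal relative to the 75th percentile of the array), with a the probe that represents the gene, b the other, and open symbols not well above background. Replicate 4 of Xrcc6 is highest on probe a at 2.69 and lowest on probe b at -2.10, and the second probes of Atm, Brca1 and Brca2 have open symbols on all 4 arrays.

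Of the 10 members with 2 probes, 3 had probes that differed in whether they were above background on all 4 arrays, against 23.6% of 3658 genes with several probes. The probes' positions on the transcripts were not used here.

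Repair genes had a median spread between the exposed cultures a little below that of all genes, a difference that was not tested. The median SD over the 4 arrays was 0.149 for the 29 detected members and 0.178 for all 8376 genes detected on all arrays. Of the 29, 17 had an SD below that all-gene median. An SD under 0.1 was found in 9 of 29, against 17.0% of all genes, and one over 0.3 in 4 (Xpa, Nbn, Chek1 and Brca1), against 16.1%. Of 73 other repair genes detected, described below, 11 had an SD under 0.1 and 9 had one over 0.3. Among the 9 members under 0.1, Parp1 and Lig1 have 10 spots per array and Xrcc1 has 2. In 13 of 29 members, against 38.8% of all genes, the SD was below the mean error that the extraction software gives for the signal. That error was 0.144 on the log2 scale for both Apex1 and Lig1, so for bright probes it acts as a nearly fixed cut. Spread beyond that of genes at a like level was tested with limma, whose prior variance was trended on level and carried 9.16 degrees of freedom. Of all 8376 genes, 16 passed at an adjusted p under 0.05 (0.191%), and Brca1 was the 1 member of 29 that did (limma adjusted p = 0.00131). At an unadjusted p under 0.05, 5.75% of all genes and again 1 of 29 members passed. An array stood apart from the other 3 by Dixon's ratio in 5.87% of all genes and in 2 of 29 members, Brca1 and Xrcc6. Brca1 no longer passed without replicate 4 (adjusted p = 0.986) or with a prior that ignores level (0.163), and over all 14 alternatives its adjusted p ran from 3.5e-35 to 0.986.

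**Figure D3:**
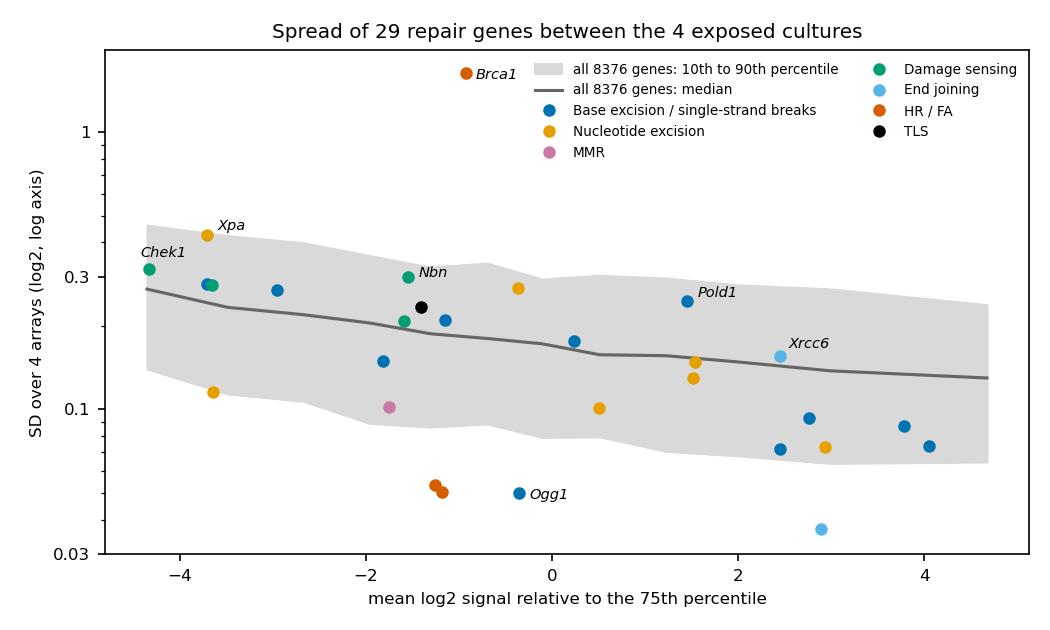
SD over the 4 arrays (log2, log axis) against mean level (log2 relative to the 75th percentile) for the 29 detected repair genes, coloured by pathway (MMR mismatch repair, HR / FA homologous recombination and Fanconi anaemia pathway, TLS translesion synthesis); the line and band give the median and the 10th to 90th percentile of all 8376 genes. Brca1 lies far above the band with an SD of 1.63, while Brca2, Fancd2, Ogg1 and Xrcc5 lie below it.

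The Brca1 value on replicate 4 came from a spot among bright spots. The probe has 1 spot per array, and the software marked it as an outlier on replicate 4. It was kept because no other spot of the probe exists. Of 139 spots within 10 rows and 3 columns, 28 (20.1%) exceeded every other array by more than 1 on the log2 scale on replicate 4, against 2.18% of all spots of that array, and 9 of them also lay above the 75th percentile, against 0.0375% of all spots. The next spot in the same row, for Syncrip, chosen for naming after its values were seen, stood at -4.16, -4.71, -3.81 and 6.80. The second Brca1 probe stood at -7.53, -7.64, -7.65 and -6.18 on replicates 1 to 4, so replicate 4 was the highest there too. That probe was not well above background on any array. Whether RNA of the fourth culture held more Brca1 was not tested. Without Brca1, 0 of 28 members had excess spread by limma, and 0 of 28 did at an unadjusted p under 0.05.

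**Figure D4:**
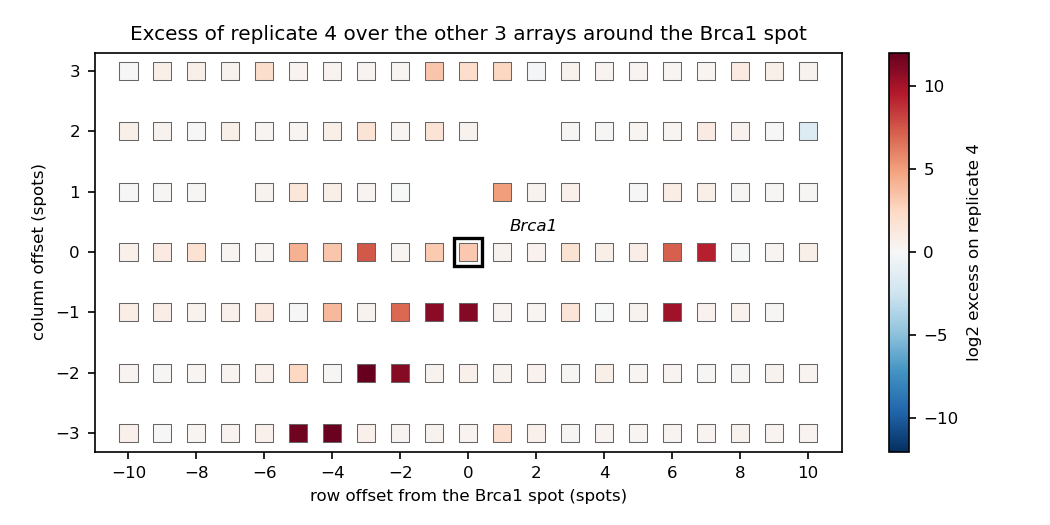
Excess of replicate 4 over the mean of the other 3 arrays (log2) at spots within 10 rows and 3 columns of the Brca1 spot, which is outlined; gaps are control spots. Spots of high excess run in a diagonal line that passes the Brca1 spot, and the highest reaches 12.7.

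The Xrcc6 probes lay in unlike parts of the same array. On replicate 4, the median deviation of spots around a spot fell below -0.3 at 1980 of 58717 spots (3.37%), in a patch of 95 rows and 31 columns, and at 0 spots of replicates 1 to 3. Among member probes, the second probe of Xrcc6 and that of Xrcc4 lay in it. At the second Xrcc6 probe the local deviation on replicate 4 was -0.64, beside -0.84 for the probe itself. With the local median subtracted, its levels were -1.05, -1.26, -1.15 and -1.46, and its SD moved from 0.56 to 0.17. The main Xrcc6 probe, outside the patch, then stood at 2.41, 2.42, 2.44 and 2.57. Replicate 4 was still the highest, by a smaller margin than before the subtraction.

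**Figure D5:**
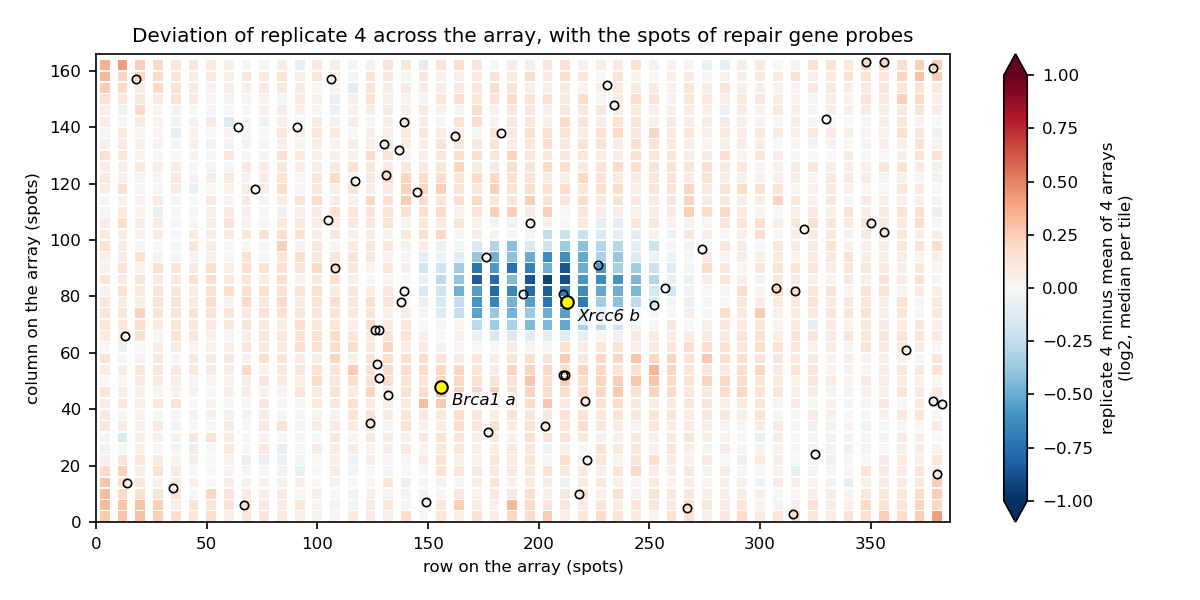
Deviation of replicate 4 from the mean of the 4 arrays (log2, median per tile) by row and column on the array, with circles at the spots of repair gene probes and the Brca1 and second Xrcc6 probes in yellow. A patch of low values, down to -0.90 in the median of neighbouring spots, holds the second Xrcc6 probe, while the Brca1 spot lies outside it.

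Members of a pathway were also compared by the array on which they stood high or low. Replicate 3 was the lowest array for 15 of the 29 detected members, against 34.4% of all genes, while replicates 1, 2 and 4 were lowest for 5, 5 and 4, against 29.9%, 20.4% and 15.4%. Replicate 4 was the highest for 13, against 36.3% of all genes, and replicates 1, 2 and 3 for 6, 5 and 5, against 19.9%, 23.6% and 20.1%. The 73 other repair genes differed from the members in this: replicate 3 was lowest for 18 of them and replicate 1 for 27. Replicate 4 was highest for 24 of the 73. In base excision repair, replicate 3 was lowest for 7 of 11 genes, and the mean deviation from each gene's own mean was 0.02, 0.03, -0.13 and 0.08 on replicates 1 to 4, with replicate 3 below 0 also after normexp correction, quantile normalization, cyclic loess, subtraction of the local median and with the percentile taken over detected probes. Subtraction of the local median turned replicate 4 to -0.04. In nucleotide excision repair the mean deviation was 0.03, 0.02, -0.03 and -0.02, with signs on replicates 2 to 4 that changed under 1 or more of them. The 4 sensing and checkpoint genes had -0.20, -0.19, 0.25 and 0.14, with the same signs under each of these alternatives. Replicates 3 and 4 both exceeded 1 and 2 in 3 of these 4 genes, in 7 of all 29 members and in 23.4% of all genes. The same order was found in 26 of the 73 other repair genes. Mean deviations over all genes were -0.03, 0.00, -0.03 and 0.06. No test of a pathway was made.

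For end joining, with Xrcc5 and Xrcc6 alone, the mean deviation was -0.03, -0.04, -0.03 and 0.10. Averaged over both probes of each gene it was 0.10, 0.05, 0.04 and -0.18, the opposite sign on every array, and the signs on replicates 1 and 3 also turned after cyclic loess. In homologous recombination and the Fanconi anaemia pathway it was -0.28, -0.31, -0.20 and 0.79, and without Brca1 it was 0.00, 0.07, -0.04 and -0.03. For all 29 members the values were -0.04, -0.04, -0.06 and 0.14, and -0.01, -0.01, -0.04 and 0.06 without Brca1.

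Most of the wider repair machinery was detected too. Of 84 other repair genes with a named probe, from a list of 105, 73 were well above background on all 4 arrays (86.9%), beside 29 of 32 members (90.6%) and 50.5% of all named genes. The difference between both lists was not tested. All 6 other mismatch repair genes were among them, as were 13 of 16 in base excision, 13 of 14 in nucleotide excision, 10 of 11 in sensing, 4 of 5 in end joining, 14 of 16 in homologous recombination and the Fanconi anaemia pathway, 7 of 9 in translesion synthesis and 6 of 7 in direct reversal and nucleotide pool care. Neil2, Parg, Tp53bp1 and Mgmt, the last a methyltransferase that reverses alkylated guanine, were not well above background on any array, each with 1 probe. Neil3, Uvssa, Polq, Rad54b, Fancb and Rev3l were above on 3 arrays and Poli on 1. Uvssa stood at -5.28, -4.95, -5.42 and -6.40 on replicates 1 to 4, and its probe lay in the low patch of replicate 4. None of the 73 passed the test of spread by limma after adjustment, and 5 did at an unadjusted p under 0.05, against 5.75% of all genes. These were Ercc6, Polm, Fance, Eme1 and Nudt5, of which Fance, Eme1 and Nudt5 lay in the low patch of replicate 4. The median SD of the 73 was 0.162.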

How the data were processed

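Total RNA of 4 exposed cultures was labelled with Cy3 and hybridised to Agilent single-colour rat arrays, per the labels. The authors extracted the intensity values in Agilent Feature Extraction (version 11.0.1.1 by the submitters' processing notes), and the deposited processed signal is background-subtracted and spatially detrended within each array, per the file headers. The sources used here do not give a normalization between arrays by the authors. The members and gene lists were chosen with earlier results of these data known.

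Control spots, and spots marked as outliers where a probe had others, were left out, and repeat spots were averaged. From each log2 signal the log2 of the 75th percentile of its array was taken off. Probes numbered 45598; 21109 were named through RefSeq accessions of the GRCr8 gene table, and 24489 stayed unnamed. The files' own grid uses rn4, so printed coordinates come from the RefSeq promoter table alone. Where a gene had several probes, the one above background on the largest number of arrays stood for it, ties going to the brighter. The 32 measured members were named with their values and the 6 others without; of other listed repair genes, those above background on some or no arrays or past the test of spread.

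The test of spread used limma (3.58.1, under R 4.3.3) over all 8376 genes above background on all 4 arrays, by an upper-tail test against a robust trended prior with Benjamini-Hochberg adjustment at 0.05. In simulated data, 41% of genes given 5 times the usual SD were called, 89% at 10 times, and 3 of the unaltered genes. The design calls the samples biological replicates; with 4 arrays, precision rests on that number. Alternatives were other background, scaling, prior, filter, detection and probe rules, and leaving out each replicate.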

Additional observations from a re-analysis of the deposited data

Results flagged for a closer look

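In 6 of 44 sets of 4 values, 1 array lay apart from the other 3 by Dixon's ratio at its 95% level, where chance alone gives about 1 in 20. Among 32 members these were Xrcc6, at 2.69 on replicate 4, and Brca1, at 1.49 on replicate 4. Among mean deviations, replicate 4 stood apart in end joining at 0.10, in homologous recombination and the Fanconi anaemia pathway at 0.79, and in all members at 0.14. In the other repair genes replicate 1 stood apart at -0.058. The Brca1 value enters the 0.79 and the 0.14, and the Xrcc6 value the 0.10, so these sets are not separate observations. The marked Brca1 spot and the low patch beside the second Xrcc6 probe lie on that array too, and their part in these values was not tested beyond the values given above.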

How the results depend on the processing

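No paired analysis was possible because the samples form 1 group. The number of members above background stayed between 26 and 32 under the alternatives tried, and the median SD of members between 0.115 and 0.177. Genes with excess spread numbered 16; the count was 25 with outlier spots kept, 154 with normexp background correction, 5 with a constant prior, 10 with a prior that was not robust, 370 with dim genes included, and 7 to 22 with a replicate left out, the lowest without replicate 2. Members with excess spread numbered 0 with the constant prior, 0 with Brca1 left out and 0 to 1 with a replicate left out. The mean deviation of nucleotide excision repair on replicate 4 was -0.085 with outlier spots kept. With normexp it was -0.011, -0.088 and 0.065 on replicates 2 to 4. It was 0.069 and -0.081 on replicates 1 and 4 after quantile normalization, 0.078 and -0.084 after cyclic loess, and 0.022 and -0.070 on replicates 3 and 4 with the percentile taken over detected probes. End joining on replicate 4 was 0.027 after cyclic loess. With both probes averaged, end joining was 0.097, 0.047, 0.041 and -0.184. With a replicate left out, end joining ran from -0.161 to -0.051 on replicate 2 and from -0.047 to 0.185 on replicate 3, where Xrcc4 enters the mean without replicate 4.

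The alternatives below were chosen after seeing the data. With the local median of neighbouring spots subtracted, replicate 4 was -0.036 in base excision, -0.080 in nucleotide excision and 0.010 in end joining, and replicate 1 was 0.082 in nucleotide excision. Homologous recombination on replicate 4 was -0.029 with Brca1 left out. The cause of these moves was not tested. Low signal limits Neil1, Xpa, Xpc, Atm, Chek1 and Xrcc4, which lie near background, and 1 probe per gene limits most members.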
